A study of Mus musculus with 10 samples.

Results

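The ISG15 system is a set of 6 genes that make, attach and remove ISG15, a ubiquitin-like protein. They were taken by name as Isg15, Uba7, Ube2l6, Herc6, Usp18 and Trim25, and all 6 were among the 36528 gene identifiers of the count tables and passed the filter on low counts. Their transcripts were measured by sequencing polyadenylated RNA from purified tumour-associated macrophages of C57Bl/6 mice with tumours of MC-38, a mouse colon carcinoma line. The mice had received anti-MerTK, an antibody against MerTK, a kinase receptor for the uptake of apoptotic cells, or anti-gp120, an antibody against an HIV envelope protein that serves as the control. Cells were profiled 24 h after treatment, in 5 libraries per group, numbered here in the order of their accessions, and no other allele, agent or age is given in the labels. The labels do not say whether libraries came from separate or pooled mice, and the spread that the p-values measure may be technical.

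Interferon induces ISG15, which is built of a pair of ubiquitin-like domains. UBA7 activates it, the conjugating enzyme UBE2L6 receives it, and a ligase passes it to lysines of target proteins, a process called ISGylation. In mouse cells HERC6 is the main ligase, a role held by HERC5 in human cells. The protease USP18 removes ISG15 from its targets and, apart from that activity, binds the interferon receptor chain IFNAR2 and dampens signalling. TRIM25 is a ubiquitin ligase of the RIG-I pathway that has also been reported to act as an ISG15 ligase. Macrophages respond strongly to type I interferon and express the whole set.

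Libraries held 33159858 to 46108687 counted reads. The summed level of 10 macrophage markers was 30594 to 36931 CPM (counts scaled to library size by the TMM method) after anti-MerTK and 28661 to 38917 CPM after anti-gp120. None of the 10 passed the test. Marker lists of neutrophils, T cells, B cells, NK cells, dendritic cells, fibroblasts, endothelium and epithelium summed to at most 131 CPM per list in any library, and no marker was at 0 in all libraries. Mertk, the gene of the antibody's target, averaged 78.9 ± 4.96 CPM after anti-MerTK and 91.1 ± 14.3 CPM after anti-gp120 (SD, n = 5 each) and did not pass (edgeR adjusted p = 0.263).

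Of the 6 genes, 4 passed the quasi-likelihood test of edgeR with a higher level after anti-MerTK, adjusted over all 13588 tested genes, and 0 with a lower one. The 4 were Isg15, Usp18, Ube2l6 and Herc6. Over all tested genes, 1.85% were called higher and 1.38% lower, or 3.22% in either direction. The same 4 genes had no overlap between the groups, with the lowest anti-MerTK value above the highest anti-gp120 value. Of all tested genes, 3.26% lay apart in that direction and 2.71% in the other. The median log2 fold change of the 6 was 0.78, against -0.01 over all tested genes. The set was chosen with results of these data in view, so the count describes these genes and is no independent support. In bulk RNA, a change in the share of cells of a type and a change in RNA per cell cannot be told apart. Monocyte markers, of which 1 of 7 (Plac8) was higher, summed to 383 to 644 CPM after anti-MerTK and 160 to 456 CPM after anti-gp120. Their mean log2 level was higher after anti-MerTK by 0.87 (two-sided exact permutation p = 0.0397, not adjusted). With that mean level as a covariate, 1 of the 6 genes (Isg15) was called higher. The log2 fold changes with that covariate were 1.68 for Isg15, 1.33 for Usp18, 1.04 for Ube2l6 and 0.71 for Herc6, and over all genes 14 were called, against 438 without it. Epithelial or tumour cell markers, of which the 1 tested (Cdh1) was lower, summed to 25.8 to 34.2 CPM after anti-MerTK and 36.0 to 59.9 CPM after anti-gp120. The difference in the log2 level of Cdh1 was -0.70 (two-sided exact permutation p = 0.00794, not adjusted). Of 2 tested plasmacytoid dendritic cell markers, Cox6a2 was higher, and the list summed to 52.7 to 65.8 CPM after anti-MerTK and 53.9 to 76.6 CPM after anti-gp120. The mean log2 level of the 2 differed by 0.30 (two-sided exact permutation p = 0.0714, not adjusted). Endothelial markers, of which 0 of 3 passed, summed to 69.7 to 119 CPM after anti-MerTK and 82.0 to 131 CPM after anti-gp120, while their mean log2 level was higher after anti-MerTK by 0.28 (two-sided exact permutation p = 0.0317, not adjusted). The part of these last 3 lists in the result was not tested.

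**Figure D1:**
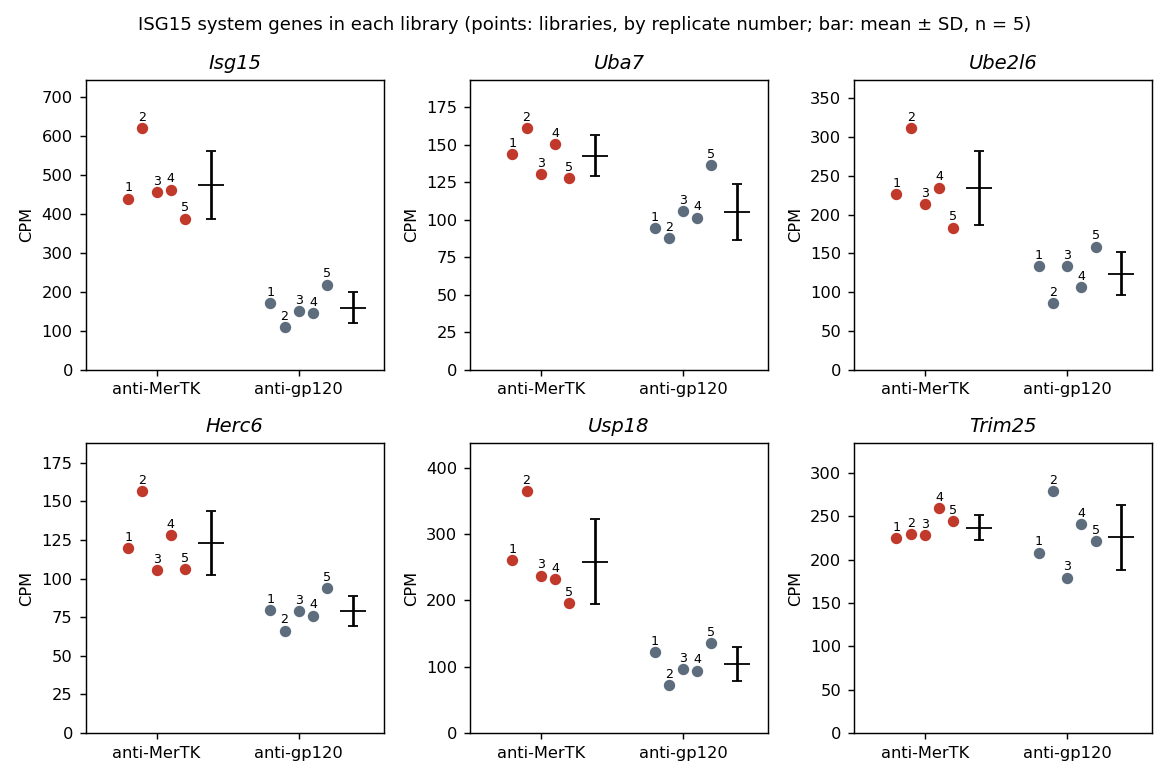
CPM of the 6 genes (vertical axis, from 0) in each anti-MerTK library (left, red) and each anti-gp120 library (right, grey), numbered by replicate, with the mean ± SD of 5 libraries as a black bar. Isg15, Ube2l6, Herc6 and Usp18 show no overlap between groups, while Uba7 and Trim25 overlap.

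The modifier itself changed most. Isg15 (Entrez 100038882, GRCm38.p6 chromosome 4, 156199424 to 156200818, minus strand) gave 439, 621, 455, 462 and 388 CPM in anti-MerTK replicates 1 to 5, against 170, 109, 150, 146 and 219 CPM in anti-gp120 replicates 1 to 5. The lowest anti-MerTK library was thus well above the highest anti-gp120 library, 388 against 219 CPM. Its log2 fold change was 1.57 (SE 0.18), a 2.98-fold rise with a 95% interval of 2.28 to 3.89 (edgeR adjusted p = 0.00441). By p-value it stood 4th of the 13588 genes, and by size of rise 29th. It passed with each single library left out.

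The stretch upstream of Isg15 is shown because it holds a run of interferon-stimulated response element letters, beside Ube2l6, which also rose, and Trim25, which did not pass. Each is 250 bases before the gene's start, from RefSeq on GRCm38.p6, in lower case with matches to the element's core (GAAA, any 2 bases, GAAA, on either strand) in capitals. They lie at chr4:156200819-156201068 (minus strand), chr2:84798578-84798827 (plus strand) and chr11:88999153-88999402 (plus strand).
Isg15: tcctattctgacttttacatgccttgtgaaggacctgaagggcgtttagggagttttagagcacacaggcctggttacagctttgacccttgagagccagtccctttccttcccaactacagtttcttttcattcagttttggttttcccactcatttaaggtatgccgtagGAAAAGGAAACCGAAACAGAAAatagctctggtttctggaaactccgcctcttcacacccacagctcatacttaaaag
Ube2l6: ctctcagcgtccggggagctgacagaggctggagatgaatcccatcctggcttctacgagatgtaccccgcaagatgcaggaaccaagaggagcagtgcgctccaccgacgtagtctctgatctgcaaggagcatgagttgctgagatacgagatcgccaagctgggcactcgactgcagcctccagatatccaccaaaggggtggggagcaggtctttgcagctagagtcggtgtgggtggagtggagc
Trim25: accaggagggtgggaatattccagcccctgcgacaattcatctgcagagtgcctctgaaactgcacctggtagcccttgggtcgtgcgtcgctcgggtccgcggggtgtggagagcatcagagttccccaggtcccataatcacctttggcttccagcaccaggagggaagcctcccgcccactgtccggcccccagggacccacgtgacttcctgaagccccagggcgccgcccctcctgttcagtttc
In Isg15 the capitals are 3 overlapping matches that begin 78, 72 and 66 bases before the gene's start. Promoter windows (300 bases, reaching 50 past the start) were at hand for 5 of the 6 genes, all but Usp18, and only that of Isg15 held the motif. Of 32851 such windows over all genes, 3.44% held it. The core of a gamma-activated site (TTC, any 3 bases, GAA, the same on both strands) was in none of the 5 windows, against 8.30% of all windows. Only exact matches were counted, so a site that differs from a core by any base was not found. A match is a description of letters, and its absence from a window says nothing of a factor's binding there or elsewhere.

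The conjugation enzymes had smaller fold changes, and Uba7 did not pass. Ube2l6 (Entrez 56791, chromosome 2, 84798828 to 84810003, plus strand), the conjugating enzyme, gave 227, 312, 214, 235 and 183 CPM in anti-MerTK replicates 1 to 5, against 134, 85.7, 133, 107 and 159 CPM in anti-gp120 replicates 1 to 5. The lowest anti-MerTK library, replicate 5, lay only a little above the highest anti-gp120 library, also replicate 5. Its log2 fold change was 0.92 (SE 0.17), a 1.89-fold rise (edgeR adjusted p = 0.0212), and its adjusted p was 0.0719 when anti-gp120 replicate 4 was left out and 0.0540 when anti-MerTK replicate 1 was.

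Herc6, the ligase (Entrez 67138, chromosome 6, 57580992 to 57665136, plus strand), gave 120, 156, 105, 128 and 106 CPM in anti-MerTK replicates 1 to 5, against 79.5, 66.3, 78.9, 76.0 and 94.0 CPM in anti-gp120 replicates 1 to 5. All anti-MerTK libraries lay above all anti-gp120 libraries, with replicate 2 apart at the top. The log2 fold change was 0.64 (SE 0.12), 1.56-fold (edgeR adjusted p = 0.0183), with an adjusted p of 0.0593 when anti-gp120 replicate 4 was left out.

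Uba7, the activating enzyme (Entrez 74153, chromosome 9, 107975567 to 107984056, plus strand), did not pass. It gave 144, 161, 131, 150 and 128 CPM in anti-MerTK replicates 1 to 5, against 94.5, 87.7, 105, 101 and 136 CPM in anti-gp120 replicates 1 to 5. All 5 anti-MerTK libraries exceeded the anti-gp120 mean, and the overlap came from anti-gp120 replicate 5, which lay above anti-MerTK replicates 3 and 5. The log2 fold change was 0.44 (SE 0.11), 1.36-fold with a 95% interval of 1.15 to 1.61 (edgeR adjusted p = 0.0527). The call turned on the setting: the adjusted p was 0.0138 when anti-gp120 replicate 5 was left out, 0.0389 when anti-MerTK replicate 5 was, and between 0.00708 and 0.138 over all alternatives.

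Usp18, the ISG15 protease (Entrez 24110, chromosome 6, 121245906 to 121270917, plus strand), followed Isg15 most nearly. It gave 261, 365, 238, 233 and 196 CPM in anti-MerTK replicates 1 to 5, against 122, 71.9, 96.4, 94.1 and 136 CPM in anti-gp120 replicates 1 to 5. The groups stood apart, 196 CPM at the lowest after anti-MerTK against 136 CPM at the highest after anti-gp120. The log2 fold change was 1.31 (SE 0.19), a 2.48-fold rise with a 95% interval of 1.86 to 3.33 (edgeR adjusted p = 0.0114), and it passed with each single library left out.

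Trim25 (Entrez 217069, chromosome 11, 88999403 to 89020294, plus strand) differed little between the groups. It gave 224, 229, 228, 259 and 244 CPM in anti-MerTK replicates 1 to 5, against 208, 279, 179, 241 and 222 CPM in anti-gp120 replicates 1 to 5. The anti-gp120 libraries spanned the whole range of the anti-MerTK libraries. The log2 fold change was 0.07 (SE 0.10, edgeR adjusted p = 0.731). The 95% interval of the fold, 0.898 to 1.23, lay below those of Isg15, Usp18, Ube2l6 and Herc6, and overlapped that of Uba7.

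RefSeq places other annotated genes over Isg15, Usp18 and Trim25 (long non-coding RNAs) and inside Herc6 (a pseudogene). GENCODE M21 also has Gm20661, a protein-coding gene, over Uba7 and Gm45193 over Herc6, each on the strand of the gene it overlaps. Of the genes that RefSeq places there, Gm11496 over Trim25 was in the count tables, with at most 1 read in a library, and the others were not analysed here. Whether counting used strand is not given in the sources used here, so reads of an antisense partner cannot be told apart from those of the gene, and strand would not separate the same-strand pairs.

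Levels of different genes were compared per length, in the authors' RPKM (reads scaled to the length of the gene and to the library, with a size factor per library). Isg15 was the highest of the 6, at 628 ± 115 RPKM after anti-MerTK and 211 ± 53.7 RPKM after anti-gp120 (SD, n = 5 each), and over all libraries its mean exceeded that of 98.8% of tested genes. Ube2l6 came next, at 169 ± 34.1 RPKM after anti-MerTK and 89.4 ± 20.6 RPKM after anti-gp120. Usp18 followed at 146 ± 36.0 RPKM after anti-MerTK and 58.9 ± 14.3 RPKM after anti-gp120. The ranges of Ube2l6 and Usp18 overlapped in both groups, although Ube2l6 was the higher in each of the 10 libraries. Uba7 and Trim25 overlapped too, with Uba7 at 45.3 ± 4.26 RPKM after anti-MerTK and 33.3 ± 6.03 RPKM after anti-gp120. Trim25 was at 42.8 ± 2.53 RPKM after anti-MerTK and 40.6 ± 6.40 RPKM after anti-gp120. Herc6 was the lowest, at 23.4 ± 3.92 RPKM after anti-MerTK and 15.01 ± 1.95 RPKM after anti-gp120.

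Whether the genes moved to different degrees was tested on ratios of RPKM within a library, which do not depend on library normalization. The 15 pairs are made of the same genes, so the ratios are not independent of each other or of the fold changes above. Ratios of other genes were not tested, and these genes were chosen with results of these data in view. The count of pairs thus describes these genes and is no independent support. For 14 of the 15 pairs the ratio differed between the groups (two-sided exact permutation test over every assignment of libraries to groups, Benjamini-Hochberg adjusted over the 15 pairs; the adjusted p was 0.00992 to 0.0340 and the smallest raw p was 0.00794, the smallest that the assignments give). The balance of modifier to protease, Isg15 over Usp18, was 3.94, 3.99, 4.49, 4.66 and 4.65 in anti-MerTK replicates 1 to 5, against 3.28, 3.55, 3.65, 3.63 and 3.77 in anti-gp120 replicates 1 to 5. Each anti-MerTK ratio exceeded each anti-gp120 ratio, by 1.21-fold between geometric means (exact permutation, adjusted p = 0.00992). The difference between modifier and protease was thus small beside the rise of either gene.

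Against its enzymes the modifier moved further. The geometric mean of Isg15 over Ube2l6 was 3.72 after anti-MerTK and 2.35 after anti-gp120, a difference of 1.58-fold. Isg15 over Uba7 was 13.7 after anti-MerTK and 6.24 after anti-gp120, or 2.20-fold, and Isg15 over Herc6 was 26.8 after anti-MerTK and 13.8 after anti-gp120, or 1.94-fold. None of these 3 ratios overlapped between the groups (exact permutation, adjusted p = 0.00992 each). Isg15 over Trim25 differed most, at 14.5 after anti-MerTK and 5.11 after anti-gp120, or 2.85-fold (exact permutation, adjusted p = 0.00992).

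The ratio of each enzyme to the protease was lower after anti-MerTK. Ube2l6 over Usp18 was 1.16 after anti-MerTK and 1.52 after anti-gp120, Herc6 over Usp18 was 0.162 after anti-MerTK and 0.259 after anti-gp120, and Uba7 over Usp18 was 0.315 after anti-MerTK and 0.573 after anti-gp120 (geometric means; exact permutation, adjusted p = 0.00992 each). Uba7 over Herc6 was 1.95 after anti-MerTK and 2.21 after anti-gp120 (exact permutation, adjusted p = 0.0340), and in 5 of the 10 settings that left out a library it missed the threshold. Uba7 over Trim25, at 1.06 after anti-MerTK and 0.819 after anti-gp120, was the pair that did not pass (exact permutation, adjusted p = 0.0873). When group medians replaced means in the permutation test, 0 of the 15 pairs passed, with adjusted p of 0.0549 for most pairs. Many assignments give the same difference of medians, so the smallest raw p of that test lies only just under 0.05. After adjustment a pair could pass only if all 15 reached that smallest p, so the medians do not decide whether the ratios differed. With means, 9 pairs passed in 8 libraries without anti-MerTK replicates 2 and 5.

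**Figure D2:**
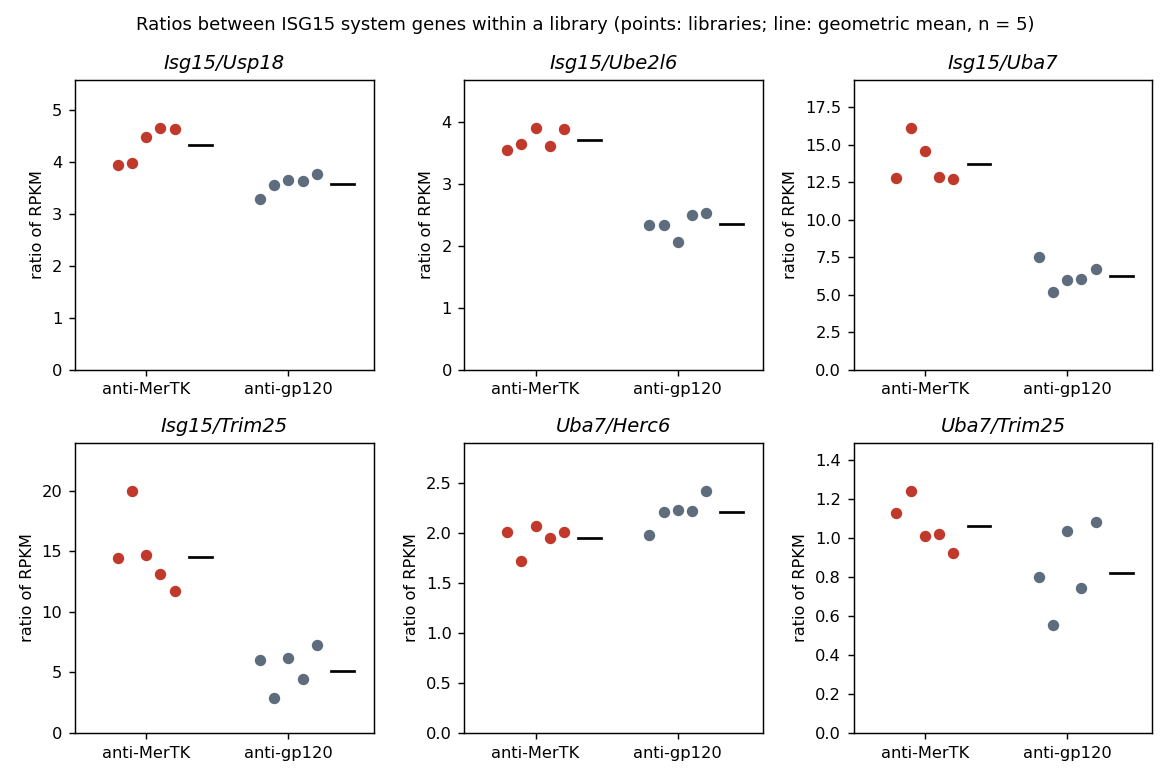
Ratio of RPKM of 2 genes within a library (vertical axis, from 0) for 6 of the 15 pairs, anti-MerTK libraries on the left and anti-gp120 libraries on the right, with the geometric mean of 5 libraries as a line. Ratios with Isg15 on top do not overlap between the groups, while Uba7/Herc6 and Uba7/Trim25 do.

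Within a group the libraries fell in much the same order for 5 of the 6 genes. Anti-MerTK replicate 2 was the highest anti-MerTK library, and anti-gp120 replicate 5 the highest and replicate 2 the lowest anti-gp120 library, for Isg15, Uba7, Ube2l6, Herc6 and Usp18. The spread within anti-gp120 libraries was wide: the highest over the lowest CPM was 2.002-fold for Isg15, 1.89-fold for Usp18 and 1.85-fold for Ube2l6. Trim25 did not share the order, and its highest anti-gp120 library was replicate 2, the lowest for the other 5 genes. With each group's mean removed from log2 CPM, Pearson's r over the 10 libraries was 0.749 to 0.959 among the 10 pairs of those 5 genes, highest for Isg15 and Usp18. The 5 pairs with Trim25 gave -0.594 to -0.281. These values describe libraries that share their depth and scaling factor, and are not tests.

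Some marker sums were also the highest or lowest of their group in the same libraries, in some cases by little. Conventional dendritic cell markers summed to 91.7 CPM in anti-MerTK replicate 2, against 48.3 to 51.2 CPM in the other anti-MerTK libraries. In anti-gp120 replicate 5 they summed to 63.6 CPM, the highest of its group, and monocyte markers to 160 CPM, the lowest of its group. Endothelial markers were also the highest of their group there, at 119 CPM in anti-MerTK replicate 2 and 131 CPM in anti-gp120 replicate 5. The next highest endothelial sums were 115 CPM in anti-MerTK replicate 4 and 111 CPM in anti-gp120 replicate 2. T cell markers were the lowest of their group in anti-MerTK replicate 2 and anti-gp120 replicate 5, at 2.65 and 7.16 CPM. The next lowest T cell sums were 5.93 CPM in anti-MerTK replicate 1 and 7.31 CPM in anti-gp120 replicate 1. Neutrophil markers were the highest of their group in anti-gp120 replicate 5, at 103 CPM. None of the 4 conventional dendritic cell markers that were tested passed between the groups. The part of these marker lists in the order of the libraries was not tested.

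**Figure D3:**
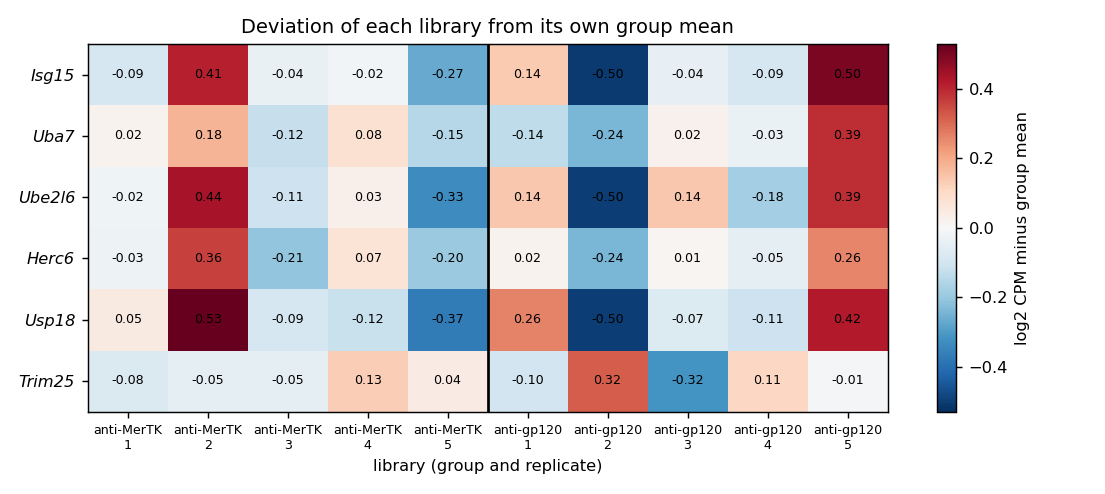
Log2 CPM of each gene (rows) in each library (columns, anti-MerTK left and anti-gp120 right) minus the mean of the library's own group, red above and blue below. Anti-MerTK replicate 2 and anti-gp120 replicate 5 are above their group means, and anti-gp120 replicate 2 below, in every row but Trim25.

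Among 10131 named genes whose mean log2 CPM reached 1, those whose deviations from the group means were most like each member's were ranked by Pearson's r over the 10 libraries. For Usp18 they were Ifit3, Oasl2 and Ifit3b (r = 0.993, 0.987 and 0.979), all genes of the antiviral response. For Ube2l6 they were Oas1a, Il15ra and Slamf8 (r = 0.992, 0.981 and 0.980), and for Isg15 Xaf1, Oasl1 and Ncoa7 (r = 0.975, 0.975 and 0.974). For Herc6 they were Slamf7, Pgap2 and Il15 (r = 0.988, 0.973 and 0.972), and for Uba7 Il4ra, Sh3bp4 and Coro1b (r = 0.983, 0.966 and 0.962). Trim25 had Eya3, Epb41 and Zfp516 (r = 0.980, 0.970 and 0.948). Of the 3 genes nearest to each, all 3 of Usp18 were called higher after anti-MerTK, 2 of Isg15 (Xaf1 and Oasl1), 1 of Ube2l6 (Oas1a) and 1 of Herc6 (Il15). None of the 3 passed for Uba7 or Trim25 (edgeR adjusted p between 0.203 and 0.889). Usp18 was 14th in likeness to Isg15, and Ube2l6 17th.

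Of 7 further reported ISG15 ligases and proteases, 0 passed (7 tested, median log2 fold change -0.08). Usp2, Usp21 and Usp16, proteases for which activity towards ISG15 has been described, had log2 fold changes of -0.34, 0.15 and -0.14, with edgeR adjusted p of 0.233, 0.308 and 0.325. In the HERC family of 5, Herc6 was higher and Herc1, a giant ubiquitin ligase, was lower, at 17.8 ± 1.24 CPM after anti-MerTK and 27.8 ± 7.07 CPM after anti-gp120 (log2 fold change -0.64, SE 0.15, edgeR adjusted p = 0.0430), with overlapping groups. Herc2 had a log2 fold change of -0.55 and did not pass (edgeR adjusted p = 0.0851).

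Enzymes that do for ubiquitin and other modifiers what UBA7 and UBE2L6 do for ISG15 gave 0 calls among 9 tested (median log2 fold change 0.00). Ube2l3, the nearest relative of Ube2l6, averaged 153 ± 6.24 CPM after anti-MerTK and 142 ± 5.86 CPM after anti-gp120 (log2 fold change 0.11, edgeR adjusted p = 0.311). Uba6, an activating enzyme of ubiquitin, was at 24.5 ± 1.56 CPM after anti-MerTK and 29.2 ± 2.49 CPM after anti-gp120 (log2 fold change -0.25, edgeR adjusted p = 0.0889). Of 13 tested genes of other ubiquitin-like modifiers 0 passed (median log2 fold change 0.07), with the ubiquitin gene Ubb at 0.20 and Sumo3 at 0.11 (edgeR adjusted p = 0.148 and 0.397). Since unique alignments alone were counted, modifier genes with many processed copies may be undercounted.

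Of 23 enzymes of SUMO, NEDD8, UFM1 and ATG12 conjugation, 1 was higher, Ube2m, the NEDD8 conjugating enzyme, at 126 ± 7.003 CPM after anti-MerTK and 105 ± 6.37 CPM after anti-gp120 (log2 fold change 0.26, edgeR adjusted p = 0.0477). Ufl1, the UFM1 ligase, had a log2 fold change of -0.26 (edgeR adjusted p = 0.0586). Of 29 other proteases of the ubiquitin-specific family, 0 were higher and 2 lower, Cyld and Usp33 (log2 fold changes -0.32 and -0.38, edgeR adjusted p = 0.0230 and 0.0373). Of all tested genes, 1.38% were called lower. The median log2 fold change of the 29 was -0.14, and 9 of them were above 0. For 3 of the 29 the groups lay apart, lower after anti-MerTK, against 2.71% of all tested genes. Cyld cuts linear and lysine-63-linked ubiquitin chains.

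Among 11 genes of the interferon receptor and its factors, 2 were higher and 0 lower (median log2 fold change 0.08). Irf7, a factor that amplifies interferon production, averaged 1277 ± 293 CPM after anti-MerTK and 531 ± 150 CPM after anti-gp120 (log2 fold change 1.27, SE 0.20, edgeR adjusted p = 0.0117). Stat2, through which USP18 is recruited to the receptor, averaged 125 ± 52.1 CPM after anti-MerTK and 54.6 ± 11.0 CPM after anti-gp120 (log2 fold change 1.19, SE 0.27, edgeR adjusted p = 0.0452), with overlapping groups. Irf9, its partner in the factor ISGF3, did not pass, at a log2 fold change of 0.31 (edgeR adjusted p = 0.0541), although its groups did not overlap.

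Reported ISG15 substrates had 2 of 13 genes higher and 0 lower. Mx1, an antiviral GTPase, averaged 64.3 ± 16.8 CPM after anti-MerTK and 23.0 ± 4.55 CPM after anti-gp120 (log2 fold change 1.48, SE 0.18, edgeR adjusted p = 0.00648). Ddx58, the RNA sensor RIG-I, averaged 119 ± 21.7 CPM after anti-MerTK and 68.2 ± 7.69 CPM after anti-gp120 (log2 fold change 0.80, SE 0.12, edgeR adjusted p = 0.0103). Eif2ak2, the kinase PKR, had a log2 fold change of 0.51 and did not pass (edgeR adjusted p = 0.0657). Itgal and Itgb2, the chains of the integrin LFA-1 to which free ISG15 binds, had log2 fold changes of -0.10 and 0.01 (edgeR adjusted p = 0.587 and 0.949). These are transcript levels, and the amount of ISG15 bound to proteins was not measured.

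**Figure D4:**
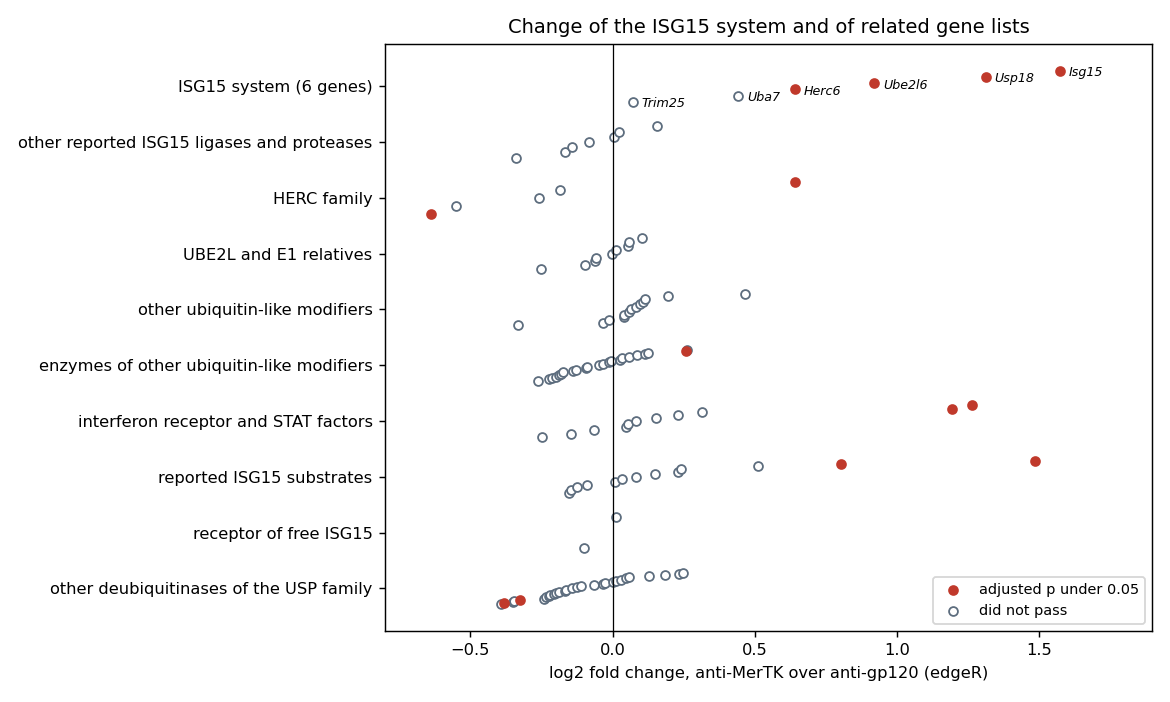
Log2 fold change, anti-MerTK over anti-gp120 (horizontal axis), of each tested gene in the ISG15 system and 9 related lists (rows), filled where the edgeR adjusted p was under 0.05. In the top row 4 of 6 genes are filled, from Herc6 at 0.64 to Isg15 at 1.57, while most genes of the other rows lie near 0.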

How the data were processed

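Polyadenylated RNA of 10 libraries was measured, 5 per antibody, grouped by the treatment label. Reads were aligned with GSNAP to GRCm38, per the submitters' processing notes. Not given in the sources used here are the aligner's version, the annotation release, the counting tool and its strand setting. Per the file headers, the deposited counts are of uniquely aligning reads per gene model. Of the Entrez identifiers, 31049 of 36528 were named from RefSeq's GRCm38.p6 table. The deposited RPKM values carry the authors' size-factor adjustment, per the file headers.

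The members and gene lists were chosen with earlier results of these data known. Counts were tested with edgeR 4.0.16 (R 4.3.3): filterByExpr (13588 genes kept), TMM, robust quasi-likelihood fit with treatment as the only term, two-sided, Benjamini-Hochberg threshold 0.05 over all genes. The SE is the log2 fold change divided by the square root of F, and its interval uses the fit's degrees of freedom, so both are approximate. The test was checked on simulated counts. Further text names, for each list, its 3 genes of smallest p, and for each member the 3 genes most like it; 1 gene so chosen is not reported here. Log2 CPM used a prior count of 2. Ratios and figures used Python 3.11.15, pandas 2.3.3, numpy 2.4.6 and matplotlib 3.10.9, and promoter letters came from RefSeq.

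Alternatives were RLE, upper quartile and the authors' library factors, no filter, 5 CPM in 5 libraries, DESeq2 1.42.0, limma 3.58.1 (voom, and log2 RPKM with pseudocounts of 0.1 and 1), sva 3.50.0, a monocyte marker covariate and leaving out libraries. RPKM ratios were also taken as CPM ratios and by medians. Trac was not analysed here.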

Additional observations from a re-analysis of the deposited data

Results flagged for a closer look

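Within groups of 5, chance places about 1 in 20 groups' extreme library as far out as the following. Many genes and marker lists were screened in both groups, so some libraries flagged in this way are to be expected by chance. Mertk had 70.5 CPM in anti-MerTK replicate 3, below the 79.4 to 82.7 CPM of the other anti-MerTK libraries. Xaf1, the gene most like Isg15, had 154 CPM in anti-MerTK replicate 2, above 92.3 to 107 CPM. Zfp516 had 46.8 CPM in anti-MerTK replicate 4, above 37.4 to 39.7 CPM. Among marker sums, conventional dendritic cell markers had 91.7 CPM in anti-MerTK replicate 2, above 48.3 to 51.2 CPM, and fibroblast markers had 39.5 CPM in anti-MerTK replicate 5, above 5.52 to 14.5 CPM. NK cell markers had 0.989 CPM in anti-gp120 replicate 1, above 0.122 to 0.319 CPM. No library of the 6 ISG15 system genes themselves stood out in this way.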

How the results depend on the processing

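All 6 log2 fold changes were positive under every alternative run. Isg15 passed in all 22, between 1.46 and 1.72 with a library left out, and Usp18 missed in 1, with the monocyte covariate (1.33, adjusted p = 0.0916). Ube2l6 and Herc6 missed with that covariate (1.04 and 0.71, adjusted p = 0.112 each), and ranged from 0.80 to 1.03 and 0.54 to 0.71 with a library left out. Uba7 passed with upper quartile normalization (0.45), no filter (0.44), the 5 CPM filter (0.45), DESeq2 (0.44), limma-voom (0.47) and 1 surrogate variable (0.40), and ranged from 0.38 to 0.55 with a library left out. Genes called higher among the 6 numbered 2 to 5 with a library left out, 2 without anti-gp120 replicate 4, and 1 with the covariate. That covariate itself differs between the groups, so it can absorb some of the contrast. Over all genes 438 changed, 1168 with DESeq2, 1007 with limma-voom, 14 with the covariate, 204 in 8 libraries, 15 at an adjusted p under 0.01, and 70 to 654 with a library left out (70 without anti-gp120 replicate 4). Of the ratios, 12 to 14 passed with a library left out, 9 in 8 libraries and 0 with medians. The test on medians could hardly pass any pair, because its smallest p lies close to the threshold. Beyond the loss of libraries, the cause was not tested. No paired analysis was possible because the labels carry no replicate numbers, and those used here only follow the order of accessions.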
